A study of Mus musculus with 28 samples.

Results

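Club cells are the secretory, non-ciliated cells of the airway lining. A set of 10 genes, called club cell genes here, was followed through all 28 arrays of newborn mouse lung: Scgb1a1, Scgb3a1, Scgb3a2, Cyp2f2, Cyp2b10, Cyp4b1, Aldh1a1, Cbr2, Fmo2 and Por. The name of the set does not mean that each gene is confined to club cells. A gene was taken where a row of the value table carried its symbol alone in the platform annotation, and the brightest such row stood for it. This gave values for 9 of the 10 genes, out of 22180 genes in all. Por, the reductase that passes electrons to the cytochromes P450, was not analysed here. Cyp2f2 had 2 rows and the other 8 genes had 1 row each.

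Secretoglobins are small proteins that club cells release into the airway fluid, and Scgb1a1 is the most widely used marker of the cell. Club cells are also the main site of cytochrome P450 metabolism in the mouse lung. Their P450 enzymes, with flavin monooxygenases, aldehyde dehydrogenases and carbonyl reductases, oxidise or reduce inhaled and endogenous compounds, which is why the cells are vulnerable to agents that P450 enzymes turn into reactive products.

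The study profiled whole lungs at postnatal day 0 of mice that lack HRas, NRas or both, which are small GTPases of the Ras family, and its title reports that the double knockout dies of respiratory distress. Each array held RNA of 1 animal. The untreated groups were Control (n = 3), HRas-KO (n = 3), NRas-KO (n = 3) and DKO, deficient in both (n = 5). The groups called Control+NAC (n = 4), HRas-KO+NAC (n = 3), NRas-KO+NAC (n = 3) and DKO+NAC (n = 4) had the same genotypes and came from dams given 0.5% N-acetyl cysteine (NAC, a thiol antioxidant) through pregnancy. The labels name neither strain nor allele. Whole-lung RNA mixes all cell types, so fewer club cells, less RNA per club cell and a change in other cells that express a gene cannot be told apart.

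Levels are given as log2 RMA values and changes as log2 differences ± their standard error. All 28 arrays entered 1 limma fit, p-values were adjusted over the 22180 genes by the Benjamini-Hochberg method, and genes under 0.05 are termed called. Array medians lay between 5.25 and 5.41. Nras lay at 8.24 ± 0.14 (SD, n = 3) in Control and at 7.63 ± 0.13 (SD, n = 5) in DKO, while the array labelled DKO+NAC replicate 4, at 8.08, stood above the other arrays labelled as lacking NRas (7.40 to 7.80) and at the level of Control replicate 1 (8.075), the lowest array with NRas. Hras was not analysed here. Animal codes in the sample titles begin with 1 of 10 letter-and-number strings, called code starts here, whose meaning the labels do not give. The untreated and NAC arrays shared 0 of them, and the 3 of untreated DKO were found in no other group, so code start and NAC, and code start and the untreated double knockout, cannot be told apart.

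**Figure D1:**
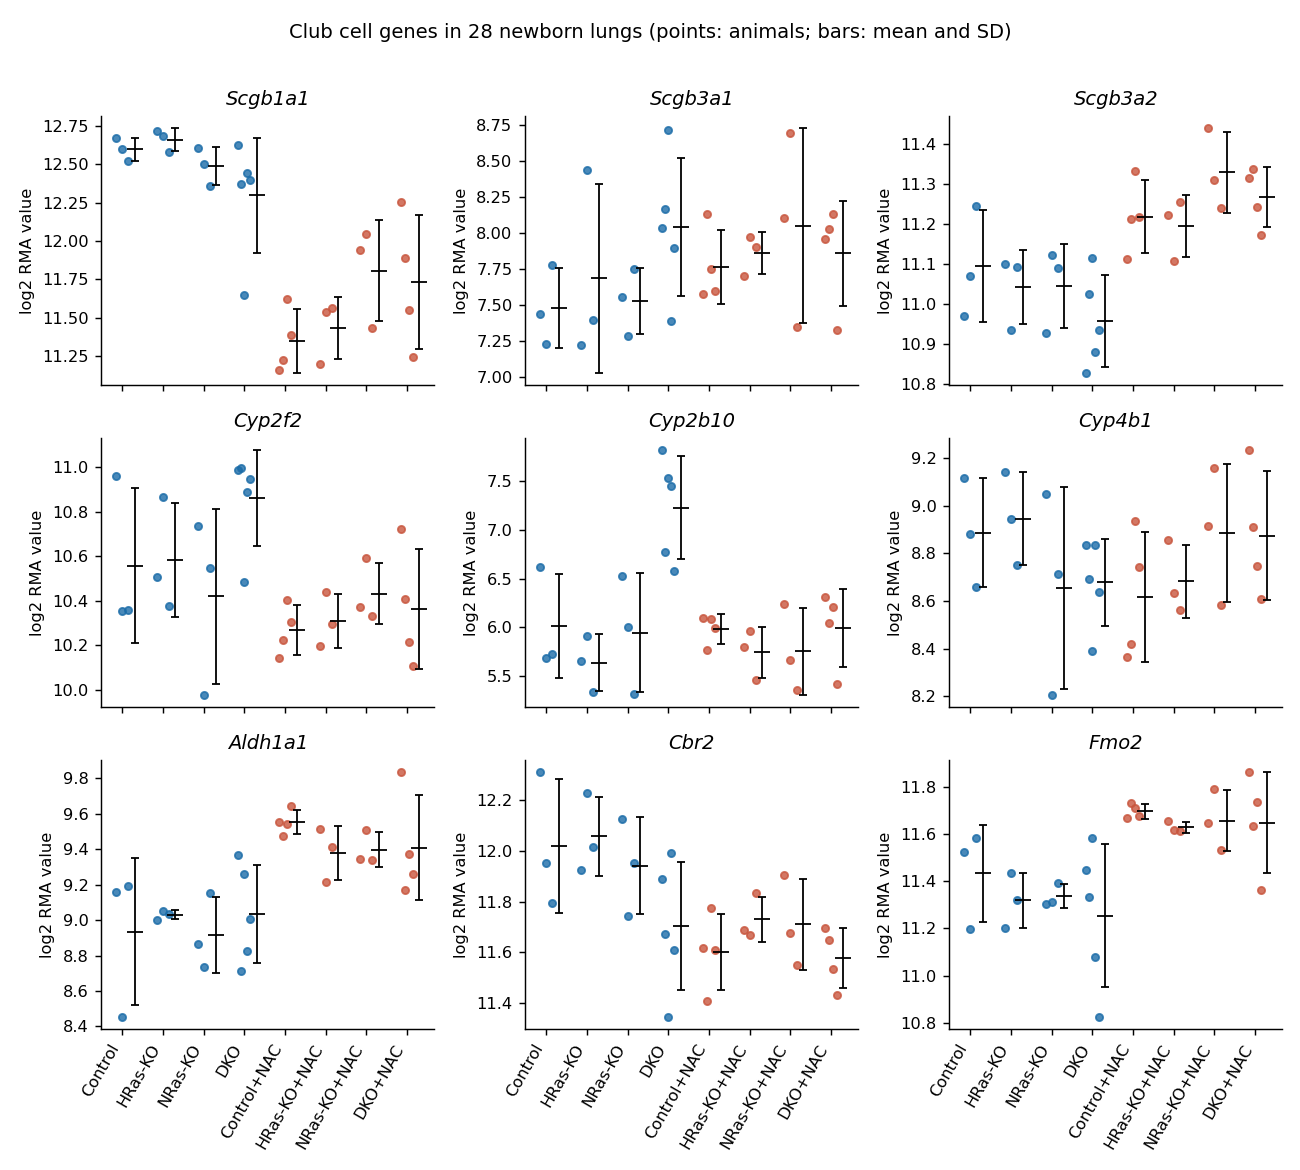
Log2 RMA value of the 9 measured club cell genes (vertical axes, a separate scale for each gene) in the 8 groups (horizontal axes). Points are animals, blue untreated and red NAC, and black bars are the mean and SD. Scgb1a1 is lower in the NAC groups, Cyp2b10 is high in untreated DKO, and Fmo2 and Aldh1a1 are higher in the NAC groups.

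The defining club cell genes were measured on every array, with Scgb1a1 between 11.16 and 12.72, Scgb3a2 between 10.83 and 11.44 and Cyp2f2 between 9.98 and 11.00. Markers of the other airway cells were also measured, with Foxj1, the ciliated cell regulator, at 6.46 to 7.33 and Trp63 and Krt14 of basal cells at 4.15 to 4.65 and 4.04 to 5.28. Within groups the 9 genes differed in how much animals varied. The pooled within-group SD was 0.10 for Scgb3a2, 0.28 for Scgb1a1, 0.43 for Scgb3a1 and 0.43 for Cyp2b10.

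Scgb1a1, which encodes the main secreted protein of the club cell, was 2.38-fold lower after antenatal NAC in Control lungs and 2.34-fold lower in HRas-KO lungs. Untreated Control arrays read 12.67, 12.60 and 12.52, and Control+NAC arrays read 11.16, 11.22, 11.62 and 11.39. HRas-KO arrays read 12.72, 12.69 and 12.58, against 11.20, 11.53 and 11.57 with NAC. In both genotypes every NAC array lay below every untreated one.

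The difference for Scgb1a1 was -1.25 ± 0.20 in Control (limma adjusted p = 0.000186) and -1.23 ± 0.21 in HRas-KO (limma adjusted p = 0.000489). It was the 22nd largest decrease of all genes in Control and the 29th in HRas-KO. Both calls held under all settings tried. The HRas-KO+NAC group rests on source labels, since the titles of its 3 samples do not mention NAC.

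NRas-KO arrays read 12.60, 12.50 and 12.36 for Scgb1a1, against 11.94, 12.05 and 11.43 with NAC. These groups did not overlap, but the difference of -0.68 ± 0.21 was not called (limma adjusted p = 0.0537). DKO arrays read 12.63, 12.37, 11.65, 12.44 and 12.40, against 12.25, 11.89, 11.55 and 11.24 with NAC. The DKO groups overlapped, because the untreated array at 11.65 stood apart from its group, and the difference was -0.56 ± 0.18 (1.48-fold lower, limma adjusted p = 0.0335). That call was lost without any 1 of 6 single arrays, DKO replicates 1, 2, 4 and 5 and DKO+NAC replicates 3 and 4, with adjusted p between 0.0605 and 0.15, in 3 of 9 other planned settings (up to 0.156) and in 1 of 4 added later (0.0658).

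Taking the arms whole, 10 of 14 NAC arrays lay below the lowest of 14 untreated arrays for Scgb1a1. The other 4 NAC arrays were those of 2 code starts. With code start T445, 4 arrays of Control+NAC and DKO+NAC lay between 11.16 and 11.62, and with T453, 6 arrays of all 4 genotypes lay between 11.20 and 11.57. With T317, 1 NRas-KO+NAC and 1 DKO+NAC array lay at 11.94 and 11.89, and with T195, 1 array of each of the same groups lay at 12.05 and 12.25.

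The NAC change of Scgb1a1 was smaller in DKO than in Control by 0.68 ± 0.27, which was not called (limma adjusted p = 0.25). All HRas-KO+NAC and all Control+NAC arrays carried the code starts T453 or T445, while NRas-KO+NAC and DKO+NAC also held T317 and T195. Within T445, DKO+NAC differed from Control+NAC by 0.22 (1 array against 3). Within T453 it differed by -0.15 (1 against 1, the DKO+NAC array being replicate 4, whose Nras level went against its label), HRas-KO+NAC differed by 0.05 (3 against 1) and NRas-KO+NAC by 0.05 (1 against 1). With code start as a fixed block DKO+NAC differed from Control+NAC by 0.10 (limma adjusted p = 0.985), against 0.39 ± 0.18 without it (limma adjusted p = 0.513). The part of code start in the genotype order of the NAC effect was not tested.

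**Figure D2:**
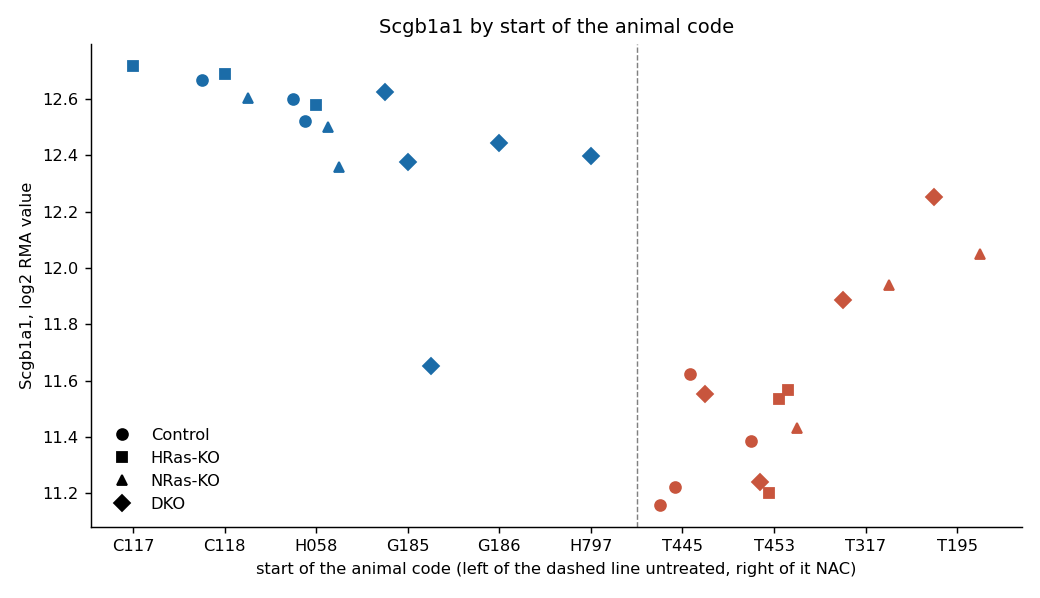
Scgb1a1 level (log2 RMA value, vertical axis) by the start of the animal code (horizontal axis), untreated arrays left of the dashed line in blue and NAC arrays right of it in red. Marker shapes are genotypes. NAC arrays of T445 and T453 lie between 11.16 and 11.62 and those of T317 and T195, which hold NRas-KO+NAC and DKO+NAC arrays alone, between 11.89 and 12.25.

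Scgb3a2, a secretoglobin that appears early in airway development, went the other way. DKO arrays read 10.83, 11.03, 11.12, 10.88 and 10.93, and DKO+NAC arrays read 11.32, 11.34, 11.24 and 11.17. Every NAC array lay above every untreated one, a difference of 0.31 ± 0.08 (1.24-fold higher, limma adjusted p = 0.00998), lost with only the arrays of the 2 groups in the fit (limma adjusted p = 0.0614). The call was also lost in 2 of 4 settings added later, without the 5 arrays highest in skeletal muscle markers (0.32, limma adjusted p = 0.0599) and with the mean of general epithelium markers as a covariate (0.26, limma adjusted p = 0.0983). In NRas-KO the difference was 0.28 ± 0.10 with no overlap (limma adjusted p = 0.0806), and in HRas-KO it was 0.15 ± 0.10 and in Control 0.12 ± 0.09, neither called.

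Scgb3a1, the secretoglobin of the upper airways, was called in no comparison. Its arrays ranged from 7.22 to 8.72, and in DKO alone from 7.38 to 8.72. The DKO difference from Control was 0.56 ± 0.28, with a 95% interval of -0.01 to 1.13 (limma adjusted p = 0.331).

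Cyp2b10, a P450 of the CYP2B subfamily that is induced through the receptors CAR and PXR in liver, stood apart in the untreated double knockout. DKO arrays read 7.82, 6.77, 7.53, 7.45 and 6.58. Control arrays read 6.62, 5.68 and 5.73, HRas-KO arrays 5.66, 5.92 and 5.34, and NRas-KO arrays 6.52, 6.01 and 5.31. Every DKO array lay above every HRas-KO and NRas-KO array, while DKO replicate 5 lay just below Control replicate 1.

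Cyp2b10 was the single club cell gene called between DKO and Control (1 of 9 genes, against 3.83% of all genes, 2.48% higher), with a difference of 1.22 ± 0.28 (2.32-fold, limma adjusted p = 0.0136). It was likewise the single one against HRas-KO (5.63% of all genes called, 3.3% higher), with 1.59 ± 0.28 (3.01-fold, limma adjusted p = 0.00115), and against NRas-KO (4.95% of all genes called, 3.2% higher), with 1.28 ± 0.28 (2.43-fold, limma adjusted p = 0.00754). By size the Cyp2b10 difference ranked 21st among increases against Control, 17th against HRas-KO and 13th against NRas-KO. The excess of Cyp2b10 in DKO over the summed single knockouts was 1.65 ± 0.42 and was not called (limma adjusted p = 0.0878), where 0.225% of all genes were.

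The Control comparison of Cyp2b10 rested on few arrays. Without Control replicate 2 the adjusted p was 0.103, without Control replicate 3 it was 0.0707, and with only the arrays of the 2 groups it was 0.107. Against NRas-KO it was 0.0856 without NRas-KO replicate 3 and 0.0848 with only the arrays of the 2 groups. The HRas-KO comparison kept its call under every setting tried.

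Of 8 skeletal muscle and 7 hepatocyte markers, 0 were called between untreated DKO and Control, HRas-KO or NRas-KO. Of all genes 3.83%, 5.63% and 4.95% were called there, so 0 of so few markers does not show that they were unchanged. In DKO+NAC against DKO, where 12.2% of all genes were called, 2 muscle markers were lower. The mean of 8 skeletal muscle markers, each centred on its own mean, was 0.60 ± 0.85 (SD, n = 5) in DKO, 0.21 ± 0.56 (SD, n = 3) in Control and -0.35 ± 0.08 (SD, n = 4) in DKO+NAC. DKO replicates 1 to 5 stood at 1.74, -0.14, 0.58, -0.30 and 1.09 for this mean, with Cyp2b10 at 7.82, 6.77, 7.53, 7.45 and 6.58. NRas-KO replicate 2 stood at 1.60 with Cyp2b10 at 6.01, and Control replicate 3 at 0.85 with Cyp2b10 at 5.73. Omitting the 5 arrays highest in these markers, a choice made after seeing the data, left Cyp2b10 0.95 above Control (limma adjusted p = 0.261). The mean of 7 hepatocyte markers was 0.67 ± 0.62 (SD, n = 5) in DKO, 0.17 ± 0.76 (SD, n = 3) in Control and 0.00 ± 0.37 (SD, n = 4) in DKO+NAC, and 0 of 7 were called in any comparison, with Alb at 6.10 to 11.66. DKO replicates 1 and 3 were high in Xist and were also the highest DKO arrays for Cyp2b10 (7.82 and 7.53). Without them the Cyp2b10 difference from Control was 0.92 (limma adjusted p = 0.0893). With high or low Xist as a covariate on all arrays its call against Control was kept. Among markers of other cell types, those called in DKO against Control were Hbb-y of 4 red cell markers (1.15), Krt15 of 4 basal (0.81), Tek (0.62), Kdr (-0.95) and Tie1 (-0.56) of 6 endothelial, Tcf21 of 7 fibroblast (-0.69), and Etv5 (-1.18) and Lamp3 (-0.52) of 10 alveolar type 2 markers. The part of any of these markers in the Cyp2b10 result was not tested.

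With NAC, Cyp2b10 in the double knockout differed from Control+NAC by 0.01 ± 0.27 (95% interval -0.55 to 0.57). DKO+NAC arrays read 6.31, 6.04, 6.21 and 5.42, all below the lowest untreated DKO array, and the difference was -1.23 ± 0.26 (2.35-fold lower, limma adjusted p = 0.00223). The NAC groups of the other genotypes read 5.77 to 6.10 in Control+NAC, 5.46 to 5.97 in HRas-KO+NAC and 5.36 to 6.24 in NRas-KO+NAC. The NAC differences of Cyp2b10 in those genotypes were -0.02 ± 0.29, 0.11 ± 0.31 and -0.19 ± 0.31. The NAC change in DKO differed from that in Control by -1.21 ± 0.39, which was not called (limma adjusted p = 0.159). Because all 4 DKO+NAC arrays and 2 of 5 untreated DKO arrays were high in Xist, the comparison was repeated with high or low Xist as a covariate, which left Cyp2b10 (lower) and Scgb3a2 (higher) called in place of 3 lower and 2 higher club cell genes.

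**Figure D3:**
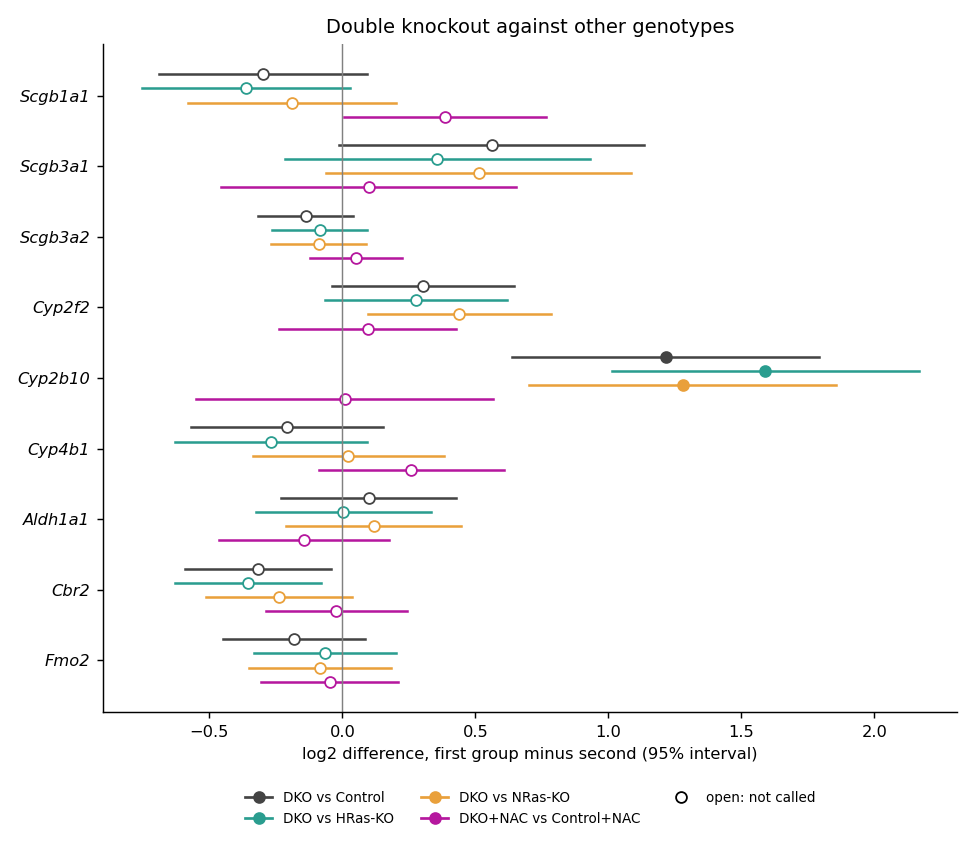
Log2 difference (horizontal axis, point, with its 95% interval, line) of each club cell gene (vertical axis) between DKO and the other genotypes, untreated or, in magenta, both with NAC. Filled points were called at an adjusted p under 0.05. Cyp2b10 is the single gene with filled points, at 1.22, 1.59 and 1.28, and its NAC point lies at 0.01.

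The CYP2B relatives Cyp2b9, Cyp2b13 and Cyp2b19 lay between 3.05 and 4.42 on all arrays, below the lowest array median of 5.25. None of them was called in DKO against Control, HRas-KO or NRas-KO, or in DKO+NAC against DKO. At such low values a change could go unseen.

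RefSeq promoter windows (GRCm38.p6, 250 bases before to 50 after a start) were given for 8 of the 10 genes, and not for Scgb1a1 and Scgb3a2. Those of Cyp2b10, Fmo2 and Cyp2f2 are shown because these 3 genes differed between DKO+NAC and DKO, with capitals marking the motif matches found on either strand. Cyp2b10 (chr7:25897408-25897707, plus strand) holds a C/EBP match, TTGCNNAA, with its first base at -58 from the start site. Fmo2 (chr1:162898709-162899008, minus strand, the first of 2 starts) holds one at -84. Cyp2f2 (chr7:27119705-27120004, plus strand) holds a nuclear receptor core motif, AGGTCA, at -221.
Cyp2b10: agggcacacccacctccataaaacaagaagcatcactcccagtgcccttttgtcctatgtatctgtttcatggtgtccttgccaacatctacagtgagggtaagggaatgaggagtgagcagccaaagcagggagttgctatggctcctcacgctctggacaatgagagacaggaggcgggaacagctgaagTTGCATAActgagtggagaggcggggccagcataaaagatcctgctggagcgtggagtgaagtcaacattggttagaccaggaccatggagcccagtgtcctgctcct
Fmo2: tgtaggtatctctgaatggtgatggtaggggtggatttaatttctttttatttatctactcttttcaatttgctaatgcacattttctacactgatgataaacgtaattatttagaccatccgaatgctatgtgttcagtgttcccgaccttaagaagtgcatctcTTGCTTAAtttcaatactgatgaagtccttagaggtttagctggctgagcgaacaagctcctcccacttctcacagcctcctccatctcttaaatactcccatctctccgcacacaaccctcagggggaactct
Cyp2f2: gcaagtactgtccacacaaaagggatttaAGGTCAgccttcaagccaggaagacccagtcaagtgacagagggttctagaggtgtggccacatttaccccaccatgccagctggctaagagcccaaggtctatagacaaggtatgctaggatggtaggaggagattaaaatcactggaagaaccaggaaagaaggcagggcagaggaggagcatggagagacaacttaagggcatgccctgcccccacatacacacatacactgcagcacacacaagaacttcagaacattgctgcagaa
Of 32851 windows of the same length, 10.8% held TTGCNNAA, 12.4% the antioxidant response element TGACNNNGC, 16.3% AGGTCA, 13.6% the TATA box TATAAA and 3.65% the forkhead motif TGTTTAC, on either strand. A match shows only that the letters are in the window.

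Cyp2f2, the enzyme that activates naphthalene in club cells, read 10.99, 11.00, 10.48, 10.89 and 10.95 in DKO and 10.72, 10.41, 10.21 and 10.11 in DKO+NAC. The groups overlapped, and the difference was -0.50 ± 0.15 (1.41-fold lower, limma adjusted p = 0.0317). The call was lost without any 1 of 7 single arrays, with adjusted p from 0.0548 to 0.107, in 2 of 9 other planned settings (0.0611 and 0.0636) and in 2 of 4 added later (up to 0.0794). In another of the 9 planned settings, the mean of both rows, the difference turned to 0.0753 and was not called (limma adjusted p = 0.845). The second, dimmer row of Cyp2f2, at 5.29 to 6.83, went the other way, 0.65 ± 0.23 higher with NAC (limma adjusted p = 0.0823), so the direction of Cyp2f2 depends on the row. Against Control, Cyp2f2 in DKO was 0.30 ± 0.17 higher and not called (limma adjusted p = 0.406).

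Cyp4b1, a P450 that hydroxylates fatty acids and activates furans, was called in no comparison. Its arrays lay between 8.21 and 9.23, and its NAC differences ran from -0.27 in Control to 0.23 in NRas-KO.

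Aldh1a1, which oxidises retinaldehyde to retinoic acid, read 9.16, 8.45 and 9.19 in Control and 9.55, 9.48, 9.54 and 9.64 in Control+NAC. The groups did not overlap and the difference was 0.62 ± 0.17 (1.53-fold higher, limma adjusted p = 0.0143). Without Control replicate 2, the array at 8.45, it was 0.38 (limma adjusted p = 0.182). In the other genotypes the differences were 0.35 ± 0.18, 0.48 ± 0.18 and 0.37 ± 0.15, none called, and 9 of 14 NAC arrays lay above every untreated array. Its paralog Aldh1a7, also a club cell gene, was 0.80 ± 0.18 higher in DKO+NAC than in DKO (limma adjusted p = 0.0042).

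Fmo2, the flavin monooxygenase of the lung, was higher with NAC in each genotype, with differences of 0.26 ± 0.14 for Control, 0.31 ± 0.15 for HRas-KO, 0.32 ± 0.15 for NRas-KO and 0.40 ± 0.12 for DKO. Only the last was called (limma adjusted p = 0.0283), with DKO arrays at 11.45, 11.33, 11.59, 11.08 and 10.83 and DKO+NAC arrays at 11.86, 11.63, 11.74 and 11.36. The call was lost without any 1 of 5 single arrays, with adjusted p from 0.0551 to 0.114, in 3 of 9 other planned settings (up to 0.164) and in 2 of 4 added later, where the difference was 0.31 with the Xist covariate (limma adjusted p = 0.115) and 0.19 with the epithelium covariate (limma adjusted p = 0.42). Of the 14 NAC arrays, 12 lay above every untreated array.

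Cbr2, the lung carbonyl reductase, read 12.31, 11.95 and 11.79 in Control and 11.62, 11.41, 11.77 and 11.61 in Control+NAC. The difference was -0.42 ± 0.14 (1.33-fold lower, limma adjusted p = 0.0464), a call lost without any 1 of 5 of the 7 arrays, with adjusted p from 0.0769 to 0.301. It was also lost in 5 of 9 other planned settings (up to 0.0924) and in 2 of 3 added later (up to 0.0551). Its differences in HRas-KO, NRas-KO and DKO were -0.33, -0.23 and -0.12, none called.

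**Figure D4:**
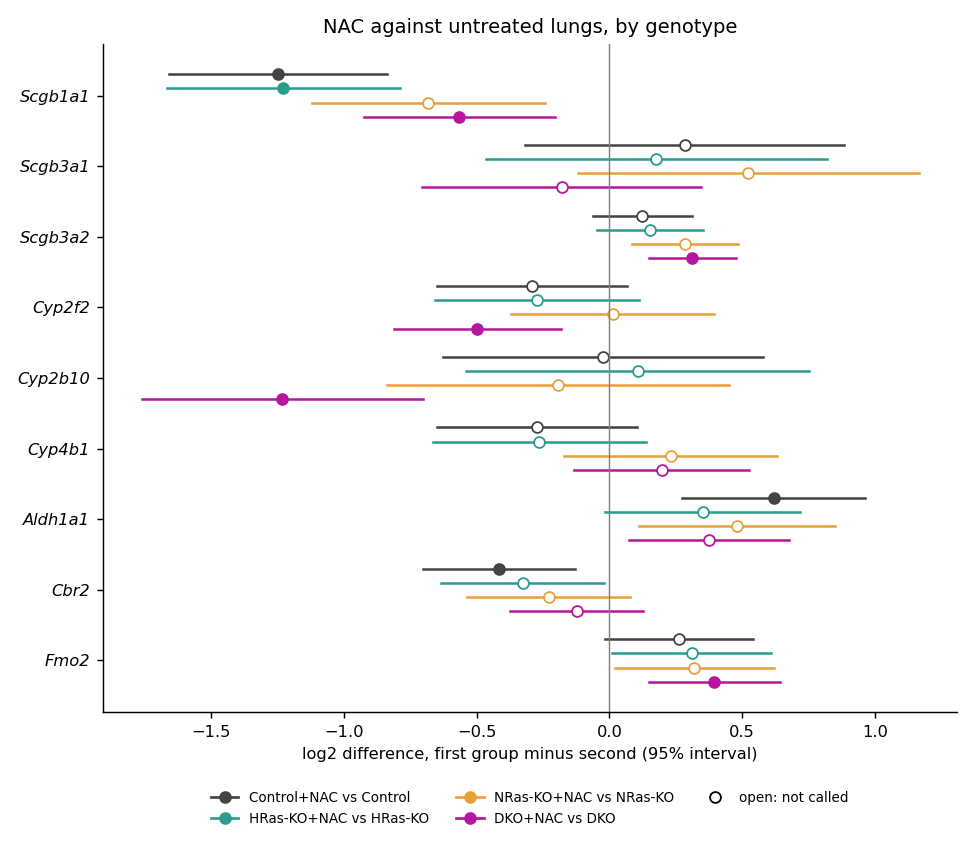
Log2 difference (horizontal axis, point, with its 95% interval, line) of each club cell gene (vertical axis) between NAC and untreated lungs of the same genotype, coloured by genotype. Filled points were called at an adjusted p under 0.05. Scgb1a1 lies below 0 in all 4 genotypes, and Aldh1a1 and Fmo2 lie above 0 in all 4.

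Counted by comparison, NAC called 1 club cell gene higher (Aldh1a1) and 2 lower (Scgb1a1, Cbr2) in Control, where 13.5% of all genes were called (7.86% higher and 5.68% lower), and 1 lower (Scgb1a1) in HRas-KO, where 11.8% were (5.1% lower). No club cell gene was called in NRas-KO, where 6.42% of all genes were. There 4 of the 9 had an unadjusted p under 0.05, as did 19.8% of all genes. In DKO, 2 were higher (Scgb3a2, Fmo2) and 3 lower (Scgb1a1, Cyp2f2, Cyp2b10), where 12.2% of all genes were (5.74% higher and 6.46% lower). The median difference of the 9 genes was -0.02, 0.11, 0.23 and -0.12 across Control, HRas-KO, NRas-KO and DKO, beside 0.02, 0.02, 0.03 and 0.015 over all genes. Without DKO+NAC replicate 4, whose Nras level went against its label, the calls of Cyp2b10 (-1.04, limma adjusted p = 0.0126), Scgb3a2 (0.34, 0.00988) and Fmo2 (0.49, 0.00974) were kept, and those of Scgb1a1 (-0.40, 0.15) and Cyp2f2 (-0.41, 0.107) were lost. The untreated and NAC groups of each genotype are distinct animals, but the 4 comparisons were fitted with 1 shared spread.

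No club cell gene was called between the single knockouts and Control, where 0% of all genes were. At an unadjusted p under 0.05 there were 0 of 9, beside 0.857% of all genes in HRas-KO and 1.04% in NRas-KO. Nras, the deleted gene, was not called in NRas-KO against Control either, at -0.55 ± 0.12 with no overlap. Nor was it called against Control+NAC in NRas-KO+NAC (-0.63, limma adjusted p = 0.108) or in DKO+NAC (-0.58, limma adjusted p = 0.121). An absence of calls in these comparisons does not show an absence of change. Among NAC lungs, limma called 0 of 9 genes between DKO+NAC, HRas-KO+NAC or NRas-KO+NAC and Control+NAC, where 0% of all genes were, with 1, 0 and 1 of 9 at an unadjusted p under 0.05 and 9.54%, 6.35% and 10.5% of all genes, in that order. The difference of differences for NAC between DKO and Control called 0 of 9 genes, against 0.388% of all genes, with 2 of 9 at an unadjusted p under 0.05 and 13% of all genes.

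Animal to animal, within groups, the genes fell into sets. Scgb1a1, Cyp2f2, Cyp4b1 and Cbr2 varied together: in deviations from the group means over 28 arrays, Cyp2f2 and Cyp4b1 correlated at r = 0.776 (rho = 0.753, permutation p = 0.00013 and 0.00028, adjusted over 36 pairs 0.00234 and 0.00336), and Scgb1a1 and Cyp2f2 at r = 0.653 (rho = 0.668, permutation p = 8e-05 and 0.00013, adjusted over 36 pairs 0.00234 and 0.00336). The 6 pairs among these 4 genes ran from r = 0.651 to 0.776 and kept 0.526 to 0.724 without the 2 arrays farthest from the median. The other pair, Scgb3a1 and Fmo2, had r = 0.685 (rho = 0.745, permutation p = 0.00073 and 0.00023, adjusted over 36 pairs 0.00375 and 0.00336). These were the 7 of 36 pairs with an adjusted permutation p under 0.05 for both coefficients, where values were permuted within groups. Within the untreated and the NAC arrays, Scgb1a1 and Cyp2f2 had r = 0.529 and 0.915. Scgb3a2 and Cbr2 had r = -0.907 in the untreated and 0.774 in the NAC arrays, a difference that was not tested. The arrays share code starts, and the values share the array's normalization.

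**Figure D5:**
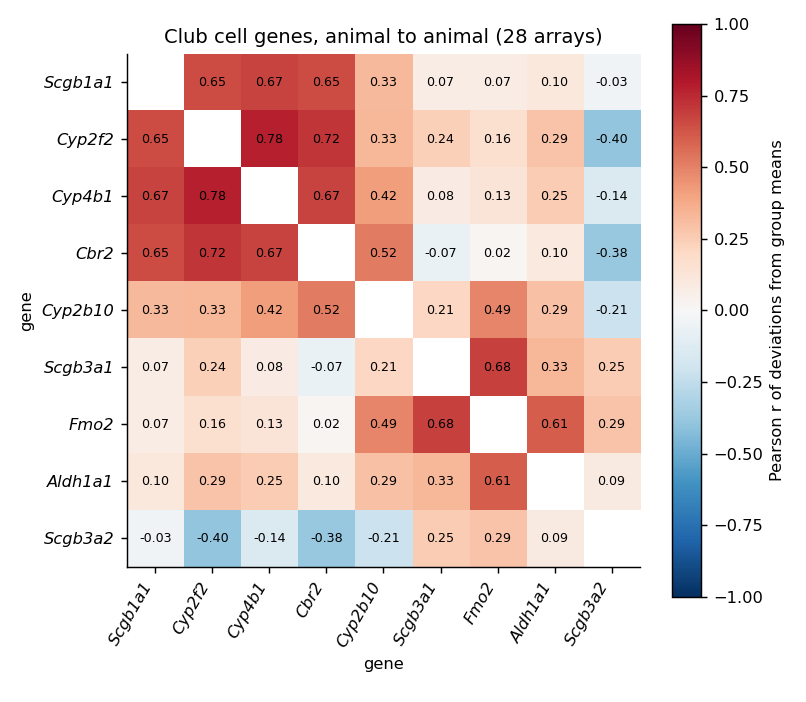
Pearson correlation of within-group deviations (colour scale and numbers) between each pair of the 9 club cell genes (both axes) over 28 arrays. Scgb1a1, Cyp2f2, Cyp4b1 and Cbr2 form a block at 0.65 to 0.78, and Scgb3a2 lies between -0.40 and 0.29 with the others.

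By the same measure, other genes were ranked, leaving out club cell genes of the set, predicted genes, clone names, microRNAs, Snor genes, Xist and Y-linked genes. The genes most like Scgb1a1 were Olfr1033 (r = 0.813), Ercc3 (0.81), Chia1 (0.772) and Clec4n (0.762). Those most like Cyp2f2 were Sfxn3 (r = 0.897), Mmp19 (0.859), Paf1 (0.853) and Nes (0.823), and those most like Cyp2b10 were Pef1 (r = 0.851), Letm2 (0.847), Ttf1 (0.838) and Dapp1 (0.833). These were the highest in 28 arrays of the genes kept out of 22180, and are a description.

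Of 29 other club and secretory cell genes, 1 was called higher in DKO than in Control, the glutathione transferase Gsto1 (0.59 ± 0.17, limma adjusted p = 0.0441), where 3.83% of all genes were called. Against HRas-KO 3 were higher in DKO, Gsta4 (0.58), Gsta3 (0.47) and Sult1d1 (0.43), where 5.63% of all genes were called. Against NRas-KO 1 was higher, Gsto1 (0.61), where 4.95% of all genes were called. In DKO+NAC against DKO, where 12.2% of all genes were called, 2 were higher and 5 lower. The lower ones included the glutathione transferase Gsta4 (-0.81), the xylulose reductase Dcxr (-0.63) and the mucin Muc5b (-1.06), and Aldh1a7 was among the higher. In Control+NAC, where 13.5% of all genes were called, the single call was the matrix protein Chad (-1.16 ± 0.32, limma adjusted p = 0.0169). The same shares over all genes, with 11.8% in HRas-KO+NAC and 6.42% in NRas-KO+NAC, stand beside the counts of the lists that follow.

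Among 25 P450 partners, relatives and xenobiotic receptors, DKO differed from Control in Cyp3a13 (0.79 ± 0.15, limma adjusted p = 0.00335) and the quinone reductase Nqo1 (0.60 ± 0.13, limma adjusted p = 0.00718), both higher. Both fell with NAC in DKO, Cyp3a13 by 0.71 and Nqo1 by 0.53, where Ephx1, the epoxide hydrolase, was also lower and Cyp1a1 higher. Tiparp, a target of the aryl hydrocarbon receptor, was higher with NAC in Control (1.09 ± 0.26) and HRas-KO (1.35 ± 0.28). Pgrmc1, a haem-binding partner of P450 enzymes, was higher in Control, HRas-KO and NRas-KO (0.48, 0.43 and 0.46). Alas1 was lower with NAC in HRas-KO (-0.89 ± 0.18, limma adjusted p = 0.00196), where 2 were called higher and 1 lower. Tiparp (1.1) and Cyp1b1 (0.69) were also higher in untreated DKO than in HRas-KO, where 4 were called higher.

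Of 19 regulators of the airway lining, 0 were called between DKO and Control. In untreated DKO 1 was higher than in HRas-KO (Jag1, 0.51) and 2 than in NRas-KO (Jag1, 0.51, and Jag2, 0.43). With NAC 5 were lower in Control, 6 among HRas-KO lungs, 3 among NRas-KO lungs and 6 in DKO (Jag2 among them, -0.75), where 1 was higher. The receptor Notch3 was lower in all 4 (-0.97, -0.92, -1.16 and -0.69), and Notch1 was lower as well (-0.65, -0.70, -0.78 and -0.82). Notch2 was called lower in Control, NRas-KO and DKO (-0.59, -0.78 and -0.69), and its HRas-KO difference is not given here. Nkx2-1, the lung lineage factor, was called in HRas-KO (-0.73 ± 0.18, limma adjusted p = 0.00782). Of 12 ciliated cell markers, 0 were called between DKO and Control and 0 in Control+NAC. Foxj1 was the single call between DKO and NRas-KO, lower in DKO (-0.45). In DKO+NAC against DKO 2 were lower (Tekt1, -0.62, and Dnah9, -0.31). Dnah9 was also lower with NAC in HRas-KO (-0.38) and NRas-KO (-0.46), the single call of each. Of 7 general epithelium markers, Krt8 was higher with NAC in Control (0.37) and HRas-KO (0.34), and Cdh1 lower in NRas-KO (-0.41) and DKO (-0.48). Of 10 glucocorticoid-induced genes, 0 were called between DKO and Control. The cell cycle inhibitor Cdkn1a was higher in untreated DKO than in HRas-KO (0.59) and NRas-KO (0.62), as was Fkbp5 against NRas-KO (0.67). Cdkn1a was also the single call in the excess over the summed single knockouts (0.82, limma adjusted p = 0.0437), where 0.225% of all genes were called. Cdkn1a and the clock gene Per1 were lower with NAC in Control (-0.62 and -0.78) and in DKO (-0.84 and -0.77), the 2 calls of each. In NRas-KO the single call was Per1, lower (-0.99). In HRas-KO 2 were called higher, Klf9 (0.54) and Errfi1 (0.39), and 0 lower.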

How the data were processed

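RNA of 28 whole newborn lungs, 1 animal per array, was measured on 1-colour Affymetrix arrays. The authors deposited log2 values. The submitters' processing notes name RMA, which corrects background, normalizes by quantiles and summarises probes, and affy. Tool versions, the genome build and whether the arrays were normalized as 1 set are not given in the sources used here. In all, the table held 41345 rows, of which 23521 had 1 gene symbol in the platform annotation, 1814 had several and 16010 were not named. The brightest row stood for each of 22180 genes, 1082 of them with several rows. The number of arrays limits the precision.

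The treatment protocol limits NAC to 3 samples, but 14 are labelled with it individually, and those labels set the groups. A model with a mean for each of the 8 groups was fitted with limma 3.58.1 (R 4.3.3, 20 residual degrees of freedom, 5.95 added by moderation), with Benjamini-Hochberg adjustment over all genes. The fit was also run on simulated data, drawn independently for each gene and array. Deviations from group means correlated between real arrays of the same code start (mean 0.1456 over 28 pairs). That run therefore does not test the fit under such correlation. Alternatives were testing all rows, averaging the rows of a gene, dropping the dimmest 40% of genes, quantile normalization again, array-median centring, other variance moderation, only the groups compared, replicate number as a block, a random or a fixed block for code start, and each array left out. Omitting 5 arrays high in muscle markers or DKO replicates 1 and 3, Xist or the mean of general epithelium markers as a covariate, and the NAC changes of HRas-KO and NRas-KO against Control, were added after seeing the data. Pair correlations were tested by 100000 permutations within groups.

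The genes and lists were chosen with earlier results of these data known. All members are named. From each list, called genes were counted and up to 4, by smallest p, could be named, and the 4 genes most like Scgb1a1, Cyp2f2 and Cyp2b10 were taken by correlation of deviations from group means. Replicate numbers did not pair arrays (mean correlation 0.0212 over 37 same-numbered pairs, 13 over 0.1).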

Additional observations from a re-analysis of the deposited data

Results flagged for a closer look

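In the untreated double knockout, replicate 3 lay far below the other 4 arrays for Scgb1a1, at 11.65 against 12.37 for the nearest, and for Cyp2f2, at 10.48 against 10.89. The gap was 0.742 and 0.79 of the group's range, above the 5-sample limit of 0.71. Without that array the DKO+NAC difference from DKO was -0.73 for Scgb1a1 (limma adjusted p = 0.0028) and -0.59 for Cyp2f2 (limma adjusted p = 0.0105). Both came from 27 sets of values tested in this way, each a gene in a group of 4 or 5 arrays. Chance would flag about 1 in 20 of such sets. The 2 flags are not independent, since they fell on the same array and these genes correlated within groups (r = 0.653). Aldh1a1 was higher in HRas-KO than in Control on untreated arrays and lower with NAC, and the change between the arms was 0.27 in size. Tested as a difference of differences it was -0.27 ± 0.25 (limma adjusted p = 1).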

How the results depend on the processing

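Counts of club cell genes called moved by over 1.5 times as follows. With only the groups compared in the fit, the count became 0 in DKO against Control, 0 against NRas-KO and 1 in DKO+NAC against DKO. The replicate block gave 1 in the excess over the summed single knockouts (Cyp2b10, 1.87, limma adjusted p = 0.0307) and 2 in DKO+NAC against DKO. Quantile normalization again gave 2 in DKO against HRas-KO (Cbr2 added, -0.39) and 1 in NRas-KO+NAC against NRas-KO (Scgb3a2, 0.34). Without the dimmest 40% of genes, NRas-KO+NAC against NRas-KO gave 1 (Scgb1a1, limma adjusted p = 0.0375). Omitting muscle-high arrays or DKO replicates 1 and 3 gave 0 in DKO against Control and against NRas-KO. The Xist covariate gave 1 in the excess and 2 in DKO+NAC against DKO. The epithelium covariate gave 2 against NRas-KO (Scgb3a1 added), 1 in the excess, 2 in HRas-KO+NAC against HRas-KO (Fmo2 added) and 2 in DKO+NAC against DKO. Smaller moves took Control+NAC against Control from 3 to 2 (all rows, quantile normalization again, median centring, only the groups compared, random code start, Xist, epithelium) or 4 (replicate block), and DKO+NAC against DKO from 5 to 4 (mean of rows, quantile normalization again, median centring) or 6 (without DKO replicates 1 and 3). The mean of both Cyp2f2 rows turned its DKO+NAC difference to 0.0753 (limma adjusted p = 0.845). Leaving out single arrays gave 0 to 1 in DKO against Control and NRas-KO, 1 to 3 in Control+NAC against Control and 2 to 5 in DKO+NAC against DKO, with 0 or 1 unchanged in the other comparisons. Of all values recomputed, 3037 kept their side of the threshold, 56 lost a call, 11 gained one and 1 of a called gene turned its sign. Among values called in neither fit, 191 changed sign. The cause was not tested for any.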
